A study of Mus musculus with 5 samples.

Results

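The keratin genes, 53 of the 21627 protein-coding genes examined, were followed through the peak lists of a chromatin immunoprecipitation study (ChIP-seq) of mouse embryonic stem cells. Members were chosen by gene symbol, Krt followed by a digit, in the clusters of chromosome 11 (27 genes, the type I cluster) and chromosome 15 (26 genes, the type II cluster). The keratin-associated protein genes, which share the prefix, were left out. The family had been picked from an earlier result on these same lists, in which Krt5 carried the mark in the knockout alone, so the class of Krt5 is given as a description.

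The study compared wild-type cells of the line MPI-II with a DDX5 knockout line derived from it, a single clone made by cutting Ddx5 with a Cas9 nickase and paired guides. Ddx5 encodes a DEAD-box RNA helicase. All cells grew on feeder cells with serum, leukemia inhibitory factor, the MEK inhibitor PD0325901 and the GSK3 inhibitor CH99021. H2AK119ub was profiled in both lines. RYBP was profiled in the wild type alone, with an antibody against DEDAF, another name of RYBP. There was 1 library for each, so no difference between genotypes has a replicate check and none was tested. Sequencing depth is unknown. The wild-type H2AK119ub list held 24235 peaks, the knockout list 20994 peaks with 0.666 times the covered length, and the RYBP list 9564 peaks. A peak list cannot show expression, so the cell type was not checked by it. Of 10 marker genes of embryonic stem cells 2 carried H2AK119ub in the wild type, and of 10 fibroblast genes, the usual markers of feeder layers, 5 did. Over all protein-coding genes the share was 27.9%. The part of feeder chromatin in the results was not tested.

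Keratins are the intermediate filament proteins of epithelia. A type I chain pairs with a type II chain, and each epithelium makes its own pairs, such as K8 with K18 in simple epithelia, K5 with K14 in the basal layer of the epidermis and K1 with K10 above it. H2AK119ub is ubiquitin on a lysine of histone H2A. It is put there by Polycomb complexes and is typical of developmental genes that stem cells hold silent. RYBP belongs to variant Polycomb complexes known for binding at CpG-rich promoters.

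In the wild type, H2AK119ub was common over the keratin genes, mainly those of the type II cluster, and RYBP was rare. A gene was counted as marked when a peak overlapped the gene or its 2 kb flanks by at least 1 bp. In the wild type 29 of the 53 genes were marked (54.7%, Wilson 95% interval 41.5% to 67.3%), against 27.9% of all protein-coding genes. In the knockout 32 were marked (60.4%, 46.9% to 72.4%), against 23.6% of all. That knockout count includes Krt5, for which the family was picked, so nothing is read from it. RYBP lay over 5 genes (9.43%, 4.1% to 20.3%), against 37.6% of all. The keratin windows were shorter than most, with a median of 11070 bp against 21330 bp for all protein-coding genes. The intervals cover counting error only and treat genes as independent, although neighbours share peaks: 5 of the 76 wild-type peaks and 6 of the 70 knockout peaks over keratin genes lay over more than 1 of them.

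By genotype, 25 keratin genes carried H2AK119ub in both libraries (47.2%, against 20.7% of all protein-coding genes). Peaks of the wild type alone lay over 4 genes, Krt16, Krt73, Krt2 and Krt76 (7.55%, against 7.20%), which is close to the background. Peaks of the knockout alone lay over 7 genes, Krt26, Krt28, Krt36, Krt13, Krt84, Krt6a and Krt5 (13.2%, interval 6.55% to 24.8%, against 3.00%). That count includes the gene for which the family was picked, so nothing is read from it. Among genes marked in either genotype, the knockout covered more base pairs than the wild type at 17 of 36 keratin genes (47.2%), and at 23.9% of the 6672 such protein-coding genes. The 17 include the 7 genes of the knockout alone, Krt5 among them, so nothing is read from this contrast either. Covered length is the number of base pairs of the gene and its flanks under peaks. The median difference, knockout minus wild type, was -304 bp for the keratin genes and -1039 bp for all. A total of 16 keratin genes had no peak in any list, 15 of them in the type I cluster.

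The clusters differed in how much of them was marked. Over the type II genes and flanks, H2AK119ub covered 27.4% of the sequence in wild-type cells and 20.1% in knockout cells. Over the type I genes these shares were 7.07% and 7.09%, and over all protein-coding genes 3.05% and 2.06%. In the type II cluster 22 of 26 genes were marked in each genotype (84.6%, 66.5% to 93.8%). The knockout count and covered share of this cluster include Krt5, for which the family was picked. The contrast of the clusters is therefore read in the wild type alone. In the type I cluster 7 of 27 were marked in the wild type (25.9%, 13.2% to 44.7%) and 10 in the knockout (37.0%, 21.5% to 55.8%). The surroundings of the type II cluster were also rich in the mark: the 1 Mb before it was covered at 15.2% and the 1 Mb after it at 12.3% in the wild type, against 18.8% of the cluster itself, spaces between genes included. The type I cluster was covered at 2.22%, below the 13.2% and 9.19% of the 1 Mb on either side.

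**Figure D1:**
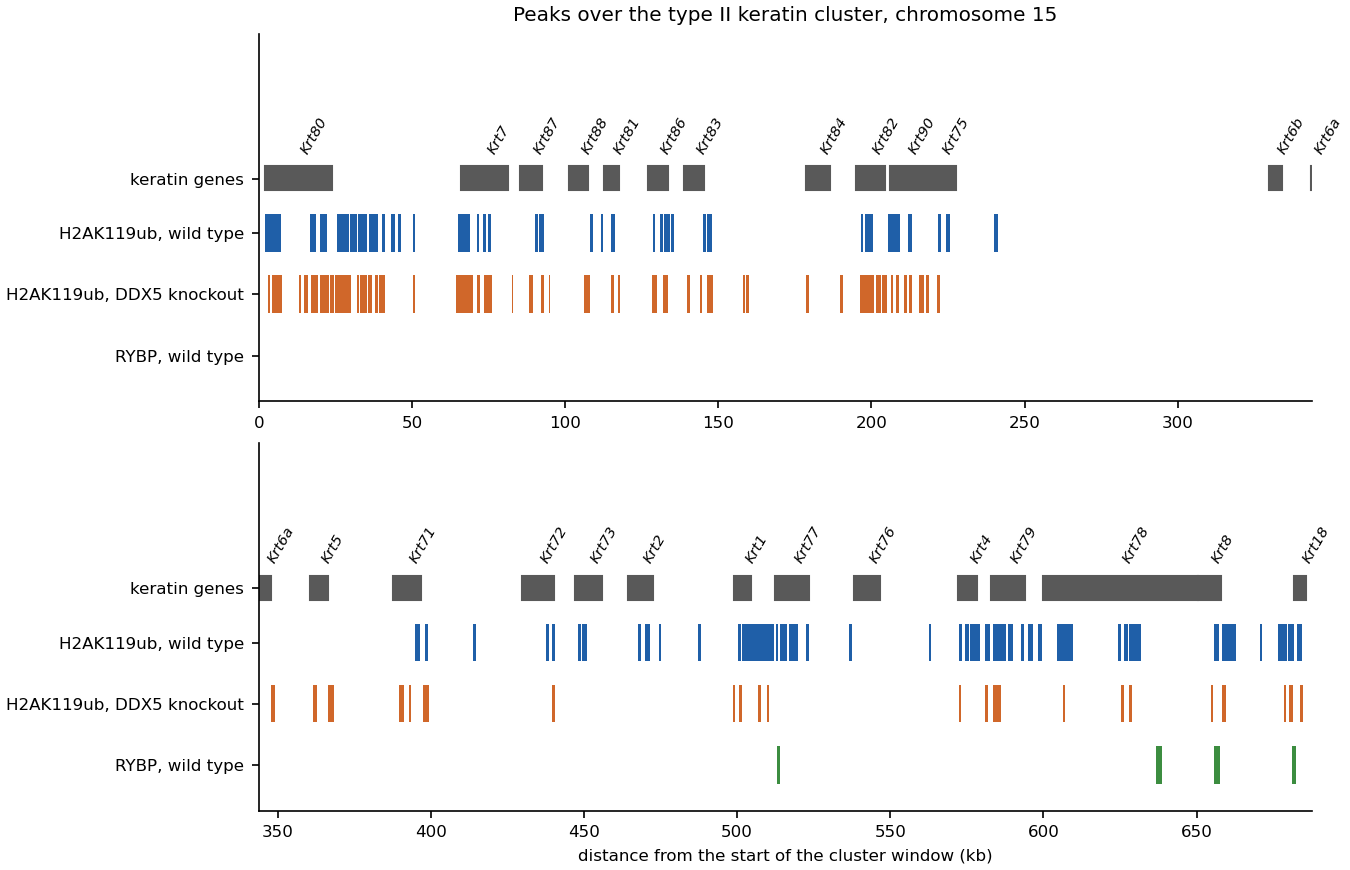
Peaks of the 3 libraries along the type II keratin cluster, drawn as coloured blocks to scale against the distance in kb from the start of the cluster window, with keratin genes as grey boxes. Knockout peaks (orange) number 46 in the stretch from Krt80 to Krt75 and 24 from Krt6b to Krt18. Wild-type peaks (blue) number 37 and 42 in these stretches, and 4 RYBP peaks (green) lie in the last part.

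Within the type II cluster the knockout library had more of the mark at one end and less at the other. The widest space between neighbouring members, 102 kb from Krt75 to Krt6b, divides the cluster, a division made after the values had been seen. From Krt80 to Krt75, 11 genes, H2AK119ub covered 27.2% of the windows in wild-type cells and 34.8% in knockout cells, a ratio of 1.28. From Krt6b to Krt18, 15 genes, it covered 27.5% and 10.1%, a ratio of 0.368. The knockout values of this last stretch include the 3563 bp at Krt5, for which the family was picked. For the stretches themselves, spaces included, the ratios were 1.2 and 0.338. On the rest of chromosome 15 the ratio was 0.844, and in the 1 Mb before and after the cluster 0.842 and 0.657. As background, the 667 windows of 350 kb with at least 20 kb of wild-type mark had a median ratio of 0.615 (quartiles 0.472 and 0.767). Of these, 23 (3.45%) reached the ratio of 1.2 of the first stretch, 7 of them outside chromosome 6. A further 63 (9.45%) were at or below the 0.338 of the last. The first stretch is 229.6 kb long and the last 360 kb, so the first is set beside longer windows. These shares are a description and not a measure of how rare the stretches are. Among the 36 such windows of chromosome 15 the median was 0.906, with 3 (8.33%) at or above the first ratio and 2 (5.56%) at or below the last.

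Krt80, a type II keratin of epithelia, had 9640 bp in wild-type cells and 13523 bp in knockout cells, the longest covered length of any member in the knockout. Krt7, a keratin of simple and ductal epithelia, had 6628 and 9531 bp. Its knockout peak of 5408 bp, from 101410803 to 101416210, took in a wild-type peak of 3851 bp over the gene start. The knockout thus exceeded the wild type by 3883 bp at Krt80 and by 2903 bp at Krt7.

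Of the hair keratins in this stretch, Krt82, made in the hair cuticle, had 4256 bp in wild-type cells and 7549 bp in knockout cells. Krt83 had 1892 and 2375 bp, and Krt84, a keratin of tongue papillae and nail, had 0 and 806 bp. Krt86, a hair cortex keratin, went the other way with 4720 and 3300 bp, as did Krt87 with 2636 and 2201 bp and Krt81 with 2103 and 1801 bp. These hair keratins are close paralogs, and how reads that match more than 1 of them were placed is not given in the sources used here. Krt90 had 5411 and 7151 bp, Krt88 936 and 2167 bp, and Krt75, the keratin of the companion layer of the hair follicle, 2116 and 3410 bp. Of the knockout length at Krt75, 1508 bp lay in its flank, in a peak across the end of Krt90. Inside Krt75 the knockout peaks had 992 and 910 bp, and the wild-type peaks 932 and 1184 bp, so the excess came from the flank. In all, 8 of these 11 genes had more covered length in the knockout and 3 had less. Krt90 shared knockout peaks with its neighbours Krt82 and Krt75, so these genes are not independent in that count.

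The run continued past the space at 3 genes. Krt5, the type II chain of basal keratinocytes (gene ID 110308, chromosome 15, 101707069 to 101712905, minus strand), had 0 bp in the wild type, where the nearest peak lay 28218 bp away, and 3563 bp in the knockout. A knockout peak of 2218 bp, from 101712667 to 101714884, lay across its start, and another of 1345 bp lay inside the gene. Krt6a, an inducible keratin of stressed epidermis, had 0 and 1315 bp, and Krt71, of the inner root sheath, 2409 and 3622 bp. Krt6b, the close paralog of Krt6a, had no peak in any list. From Krt80 to Krt71, 11 of the 14 marked genes had more in the knockout, with the peaks shared by Krt82, Krt90 and Krt75 counted at each. This description includes Krt5, and its end points were set by the values.

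From Krt72 to Krt18 all 11 genes had less covered length in the knockout, and the share of the windows covered was 32.5% in wild-type and 7.5% in knockout cells, a ratio of 0.231. The end points of this run, too, were set by the values. Krt1, the suprabasal partner of K10, had 5973 bp in wild-type cells and 1415 bp in knockout cells. Krt77, a keratin of sweat gland ducts and embryonic skin, had 8437 and 116 bp. The widest H2AK119ub peak over any keratin gene, 10516 bp from 101847829 to 101858344 in the wild type, ran between these neighbours, and 3 knockout peaks covered 1608 bp of it. Only 0.689% of wild-type peaks in the genome were as wide.

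Krt4, the keratin of the suprabasal esophagus and tongue, had 5657 bp in wild-type cells and 588 bp in knockout cells. Krt79, of the hair follicle opening and sebaceous duct, had 9301 and 3253 bp. Krt78, whose annotated span of 50624 bp is long for a keratin gene, had 12045 and 2492 bp. These genes kept a knockout peak, whereas 3 neighbours did not. Krt2, of the upper epidermis, had 2418 and 0 bp. Krt73, of the inner root sheath, had 2392 and 0 bp. Krt76, of the palate, had 814 and 0 bp. Krt72, of the inner root sheath, had 1948 and 830 bp.

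Krt8 and Krt18, the pair of simple epithelia and the first keratins of the embryo, close the cluster. Krt8 (gene ID 16691, 101996711 to 102004342, minus strand) had 3448 bp in wild-type cells and 1787 bp in knockout cells. Krt18 (gene ID 16668, 102028216 to 102032026, plus strand), the type I gene that sits in the type II cluster, had 3389 and 2419 bp. Their ratios, 0.518 and 0.714, were the highest of the run from Krt72 to Krt18.

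**Figure D2:**
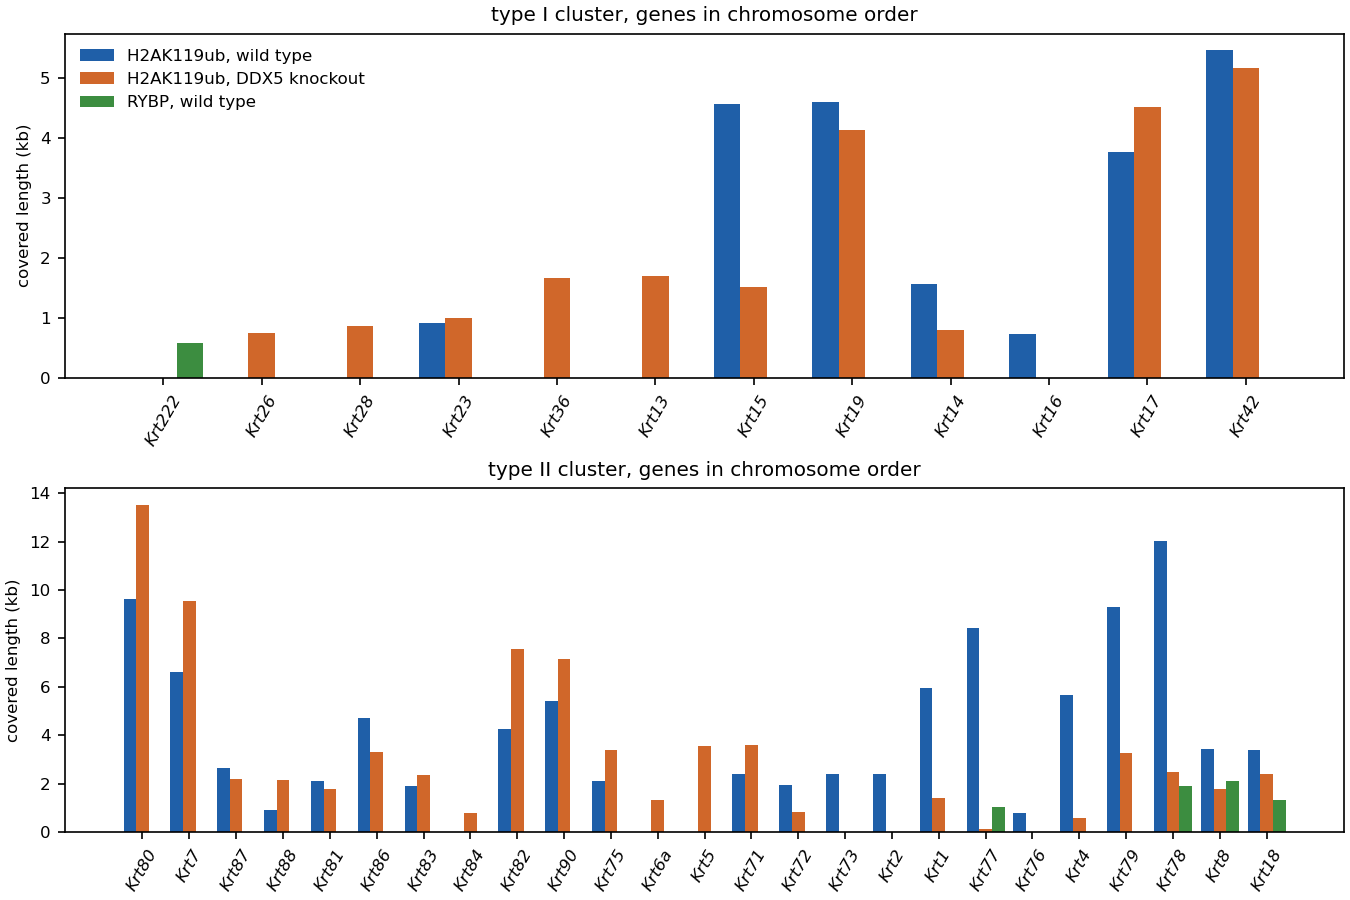
Bars give the length in kb covered by H2AK119ub in the wild type (blue) and the knockout (orange) and by RYBP (green) over each keratin gene with a peak and its 2 kb flanks, 1 library each, with genes in chromosome order. Krt80 reaches 13523 bp in the knockout, and from Krt72 to Krt18 each orange bar is shorter than its blue neighbour or missing.

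In the type I cluster most of the mark lay at one end. The widest space, 468 kb between Krt40 and Krt33a, separates 12 genes from 15. Among the 12 from Krt222 to Krt40, H2AK119ub covered 0.582% of the windows in wild-type cells and 1.67% in knockout cells, each below the share over all protein-coding genes. Krt23, a keratin of glandular epithelia, was the single gene marked in both, with 908 and 1003 bp over its start. Krt26 and Krt28, of the inner root sheath, had 0 bp in the wild type and 741 and 863 bp in the knockout.

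Among the 15 genes from Krt33a to Krt42 the shares were 14.5% and 13.3%. Krt15, a keratin of basal cells and of the hair follicle bulge, had 4578 bp in wild-type cells and 1512 bp in knockout cells. Its neighbour Krt19, of simple epithelia, had 4611 and 4130 bp. Krt17, of hair follicles and wounded epidermis, had 3772 and 4528 bp, and the adjacent Krt42 5473 and 5167 bp, with peaks shared between them. Krt15 thus had 0.33 times its wild-type length in the knockout, while Krt19, Krt17 and Krt42 lay near 1, at 0.896, 1.2 and 0.944.

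Krt14 (gene ID 16664), the partner of K5 in basal cells, had 1558 bp in wild-type cells and 801 bp in knockout cells, from peaks that did not overlap. The wild-type peak lay inside the gene, from 100204729 to 100206286, and the knockout peak 141 bp upstream of the annotated gene, which lies on the minus strand, from 100207651 to 100208451. The RefSeq start matched for Krt14 lies 1480 bp inside the annotated gene. The promoter of 300 bases at this inner start lay whole under the wild-type peak and outside the knockout peak. The upstream end of the annotated gene, at 100207510, lay under neither peak. Krt16, of stressed epidermis, had 729 and 0 bp. Krt13, of mucosal epithelia, had 0 and 1697 bp, and Krt36, a hair and nail keratin, 0 and 1660 bp. The suprabasal Krt10, the partner of K1, had no peak in any list, nor did Krt9 of the palm and sole, Krt12 of the cornea, Krt20 of the gut, Krt24, Krt25, Krt27 or the hair and nail keratins Krt31, Krt32, Krt33a, Krt33b, Krt34, Krt35, Krt39 and Krt40.

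**Figure D3:**
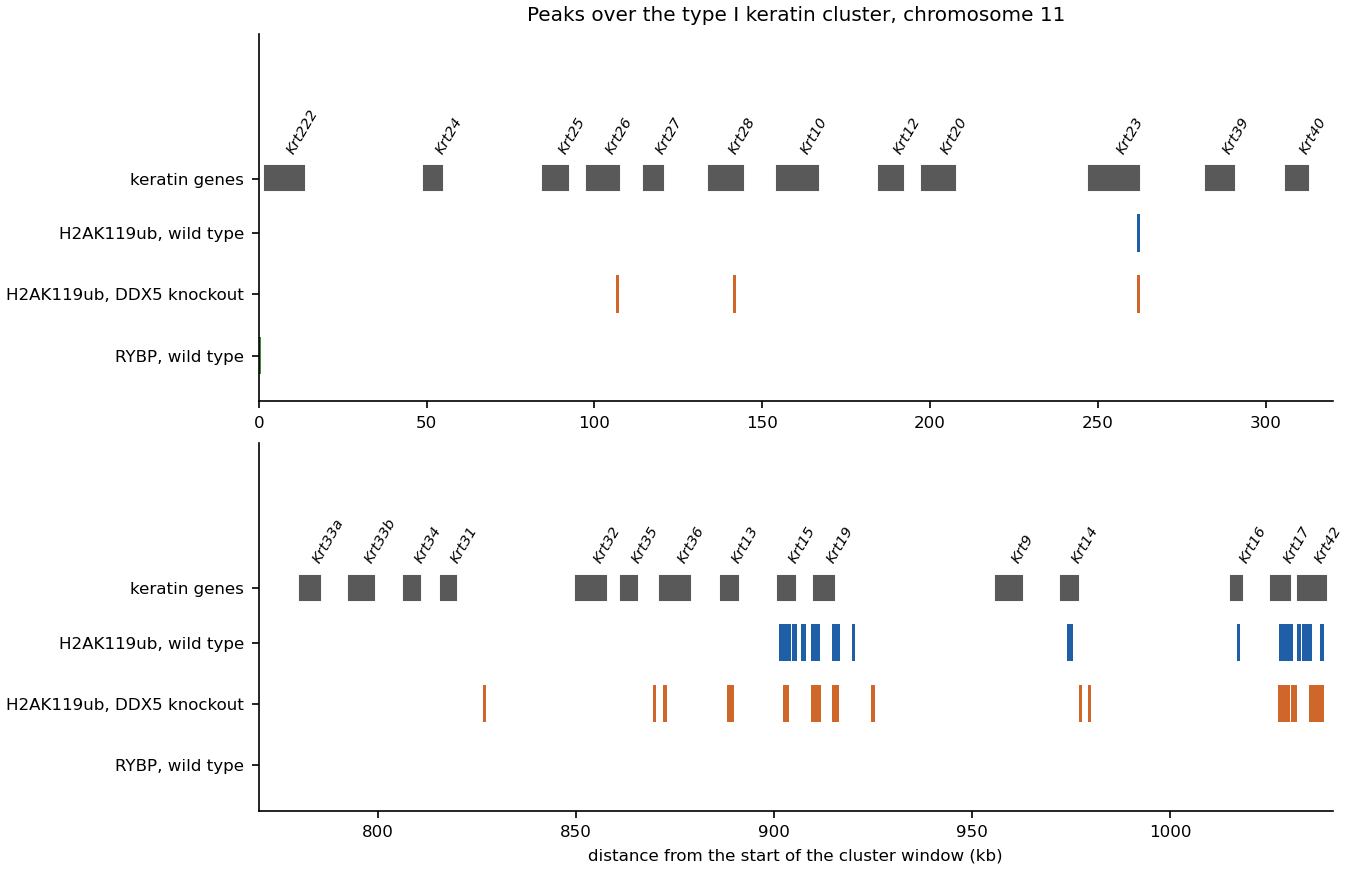
Peaks of the 3 libraries along the type I keratin cluster against the distance in kb from the start of the cluster window, with keratin genes as grey boxes, where the upper panel shows Krt222 to Krt40, the lower panel Krt33a to Krt42, and the 468 kb space between them is left out. Both H2AK119ub tracks are nearly empty in the upper panel and gather at Krt15 to Krt19 and at Krt17 to Krt42 in the lower one.

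Sorted by the tissue in which the protein is made, the simple epithelial keratins were the group most often marked, at 6 of 7 in each genotype, Krt20 being the exception. The covered length of this group, knockout to wild type, had a ratio of 1.13 (28624 and 32393 bp in all). Krt80, described above only as a keratin of epithelia, was placed in this group. It gave 9640 of the wild-type and 13523 of the knockout bp, 3883 bp more in the knockout, so the ratio depends on that placing. Of the 6 marked genes 3 had more in the knockout and 3 had less, with a median difference of -193 bp. Basal and stress keratins of stratified epithelia were marked at 5 of 8 in wild-type cells and at 6 in knockout cells, with a ratio of 1.02. Krt5, for which the family was picked, gave 0 bp in wild-type cells and 3563 bp in knockout cells. The knockout count and the ratio of this group include Krt5, so nothing is read from either. Suprabasal and differentiation keratins were marked at 7 and 6 of 12 (58.3% and 50.0%). They had the lowest ratio, 0.214, with 7 of the 8 marked genes lower in the knockout. Of those 8, 7 lie side by side from Krt2 to Krt78, so the group and the position in the cluster cannot be told apart.

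Inner root sheath and companion layer keratins were marked at 4 and 5 of 8 (50.0% and 62.5%), with a ratio of 1.07. Hair and nail keratins were marked at 5 and 7 of 15 (33.3% and 46.7%), with a ratio of 1.26. Their wild-type share is close to the 27.9% of all protein-coding genes. In the last group all the genes marked in the wild type were type II genes, and Krt36 was the only type I gene marked in the knockout. The remaining members, Krt88, Krt90 and Krt222, were in no group.

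**Figure D4:**
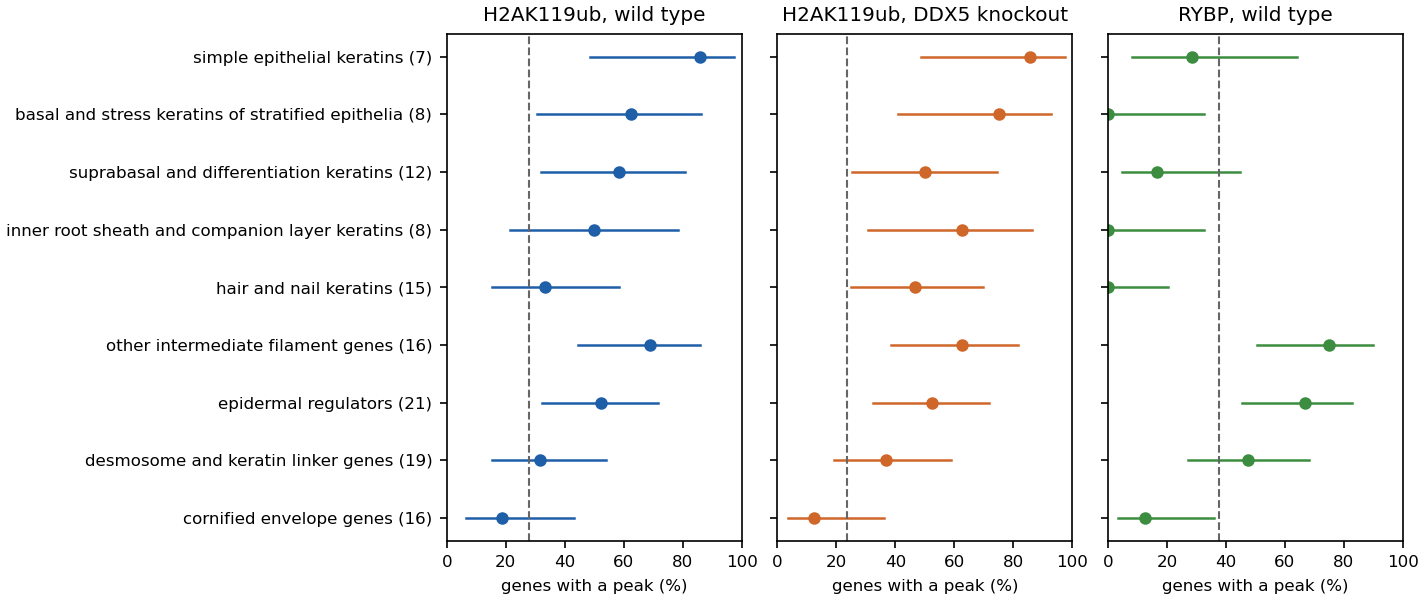
Points give the percentage of genes with a peak in each of 5 keratin groups and 4 lists of related genes (number of genes in brackets) for the 3 libraries, with Wilson 95% intervals as lines and the percentage of all protein-coding genes as a dashed line. In the RYBP panel the 5 keratin groups lie left of the dashed line at 37.6%, and other intermediate filament genes, 12 of 16, right of it.

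RYBP peaks lay over few genes in both clusters. Of the 29 keratin genes marked in the wild type 4 also had RYBP (13.8%, 5.5% to 30.6%), against 70.2% of the 6024 marked protein-coding genes (69.1% to 71.4%). Peak by peak, 3 of the 76 wild-type H2AK119ub peaks over keratin genes touched a RYBP peak (3.95%), against 21.8% of all wild-type peaks. Of the same 76 peaks 55.3% touched a knockout H2AK119ub peak, against 48.9% of all. The 4 RYBP peaks in the 687.7 kb of the type II cluster cover 0.936% of it, against 4.25% and 3.73% of the 1 Mb before and after it. The rest of chromosome 15 was covered at 0.72%, less than the cluster. Over the type II genes and flanks RYBP covered 1.81%, against 1.4% over all protein-coding genes. In covered length, then, the type II cluster was low beside its neighbourhood only. No RYBP peak lay in the stretch from Krt80 to Krt75, where both H2AK119ub lists were dense.

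Krt18 was the one member with a RYBP peak across its start, 1332 bp from 102027475 to 102028806, and it overlapped H2AK119ub peaks of both genotypes. At Krt8 the RYBP peak, 2135 bp from 102001827 to 102003961, lay inside the gene and overlapped a wild-type H2AK119ub peak of 1813 bp that no knockout peak touched. At Krt77 a RYBP peak of 1044 bp lay inside the gene and overlapped a wild-type H2AK119ub peak. At Krt78 a peak of 1925 bp lay inside the annotated span, away from H2AK119ub. Krt222 had RYBP in its flank alone, 1425 bp from the gene, and no H2AK119ub.

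Some genes had peaks of a list in the flanks alone. The most distant of these nearest peaks were the knockout peak at Krt77, 1885 bp from the gene, and the RYBP peak at Krt222, at 1425 bp. The nearest peaks not counted were a knockout peak 4127 bp from Krt35, a RYBP peak 8590 bp from Krt1 and a wild-type peak 9947 bp from Krt84.

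Promoter sequences of RefSeq (GRCm38.p6, 250 bases before to 50 after the start) were matched for 36 of the 53 genes, 37 promoters in all, 35 of them on the minus strand. In 7 of them the start used lies more than 50 bases inside the gene span. Keratin promoters were poor in CpG, with a median of 5 CpG in 300 bases (range 2 to 21) against 13 for all protein-coding promoters. Promoters under a RYBP peak had a median of 25, and those under a wild-type H2AK119ub peak 18, or 8 where RYBP was absent. Among keratin genes the median was 6 where the gene was marked in both genotypes and 4 where it was marked in neither. The letters TATAAA, searched on both strands, were found in 19 of 37 keratin promoters (51.4%) and in 12.7% of all. They were in 4 of the 14 promoters of keratin genes marked in both genotypes and in 10 of the 13 of genes marked in neither. All of these 13 belong to the type I cluster, and most of the 14 to the type II cluster. By cluster, TATAAA was in 13 of 21 type I and 6 of 16 type II promoters, and the median CpG counts were 5 and 6. The class of the gene and its cluster therefore cannot be told apart here, for TATAAA or for CpG.

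**Figure D5:**
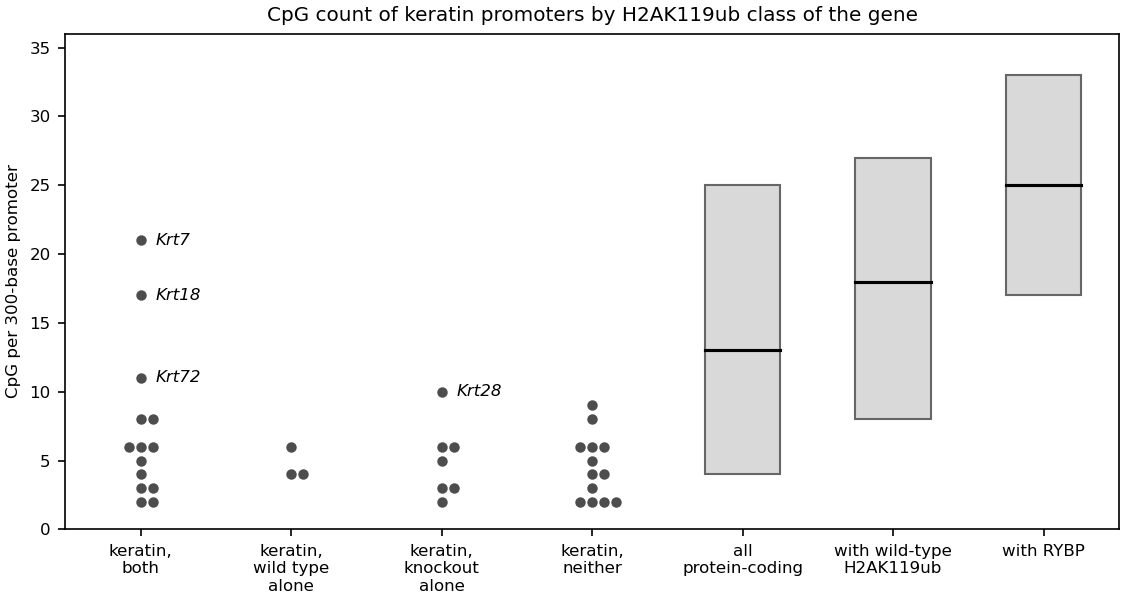
Points give the CpG count of each keratin promoter of 300 bases, by H2AK119ub class of the gene, and grey boxes give the quartiles and median of all protein-coding promoters, of those under a wild-type H2AK119ub peak and of those under a RYBP peak. Krt7 with 21 and Krt18 with 17 are the only keratin promoters above the median of 13 of all promoters.

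Promoters of 4 genes are shown because they differ in CpG count and in which peaks lie over them. That of Krt7 (chr15:101412153-101412452, plus strand, 21 CpG) lay whole under H2AK119ub in both genotypes and had no RYBP. That of Krt18 (chr15:102027966-102028265, plus strand, 17 CpG) lay whole under RYBP, with 22 bases under wild-type H2AK119ub and 0 under the knockout mark. The promoter of Krt5 (chr15:101712856-101713155, minus strand, 6 CpG) lay whole under H2AK119ub in the knockout alone. That of Krt8 (chr15:102004293-102004592, minus strand, 6 CpG) had 42 bases under knockout H2AK119ub and none under the other lists, and TATAAA begins at its base 250. Each is printed 5′ to 3′ on the strand of the gene, and capitals mark CpG.
Krt7: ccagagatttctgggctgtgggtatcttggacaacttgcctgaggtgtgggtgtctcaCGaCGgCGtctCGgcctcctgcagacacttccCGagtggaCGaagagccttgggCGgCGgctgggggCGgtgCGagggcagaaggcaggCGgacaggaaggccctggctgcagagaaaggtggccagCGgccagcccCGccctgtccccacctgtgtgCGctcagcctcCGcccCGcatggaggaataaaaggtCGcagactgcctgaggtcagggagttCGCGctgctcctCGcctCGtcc
Krt18: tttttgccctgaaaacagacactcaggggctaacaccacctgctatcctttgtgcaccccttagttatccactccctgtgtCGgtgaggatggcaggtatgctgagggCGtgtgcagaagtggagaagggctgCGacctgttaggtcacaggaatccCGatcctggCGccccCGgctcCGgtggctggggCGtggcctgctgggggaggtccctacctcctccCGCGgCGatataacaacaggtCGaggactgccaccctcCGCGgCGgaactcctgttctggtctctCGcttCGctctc
Krt5: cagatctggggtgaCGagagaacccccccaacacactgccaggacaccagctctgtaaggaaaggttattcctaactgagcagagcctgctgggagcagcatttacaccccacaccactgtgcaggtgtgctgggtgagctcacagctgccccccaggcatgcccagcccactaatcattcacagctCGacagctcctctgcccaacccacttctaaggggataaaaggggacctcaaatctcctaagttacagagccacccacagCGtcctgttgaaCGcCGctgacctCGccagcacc
Krt8: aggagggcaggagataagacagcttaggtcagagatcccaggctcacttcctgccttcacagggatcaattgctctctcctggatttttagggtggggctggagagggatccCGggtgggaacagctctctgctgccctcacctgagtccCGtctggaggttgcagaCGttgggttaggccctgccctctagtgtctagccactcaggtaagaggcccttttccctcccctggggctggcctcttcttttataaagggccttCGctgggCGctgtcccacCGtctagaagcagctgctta

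The CpG of Krt7 and Krt18 are spread along the sequence, while those of Krt5 and Krt8 are few. All 4 genes carried H2AK119ub in at least 1 genotype, and RYBP lay over the promoter of Krt18 only.

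The mark lay both over the genes and over their flanks. For the 36 genes with a known strand, wild-type H2AK119ub covered 11.4% of the 2 kb upstream, 17.1% of the gene and 9.64% of the 2 kb downstream. In the knockout these shares were 15.1%, 12.3% and 8.33%. The upstream flank had a peak at 10 genes in the wild type and at 11 in the knockout, with 8215 and 10862 bp covered. The knockout value includes part of the peak of 2218 bp across the start of Krt5, for which the family was picked. Nothing is therefore read from the upstream difference. Of the 81 pairs of a wild-type peak and a keratin gene, 47 had the peak wholly inside the gene, 15 across a gene end and 19 in a flank. The median width of wild-type peaks over keratin genes was 1323 bp, and of knockout peaks 1061 bp, against 1360 and 1083 bp for all peaks of those lists.

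Lists of related genes outside the keratin family were measured the same way. The shares over all protein-coding genes were 27.9% in the wild type, 23.6% in the knockout and 37.6% for RYBP. Of 16 other intermediate filament genes 11 were marked in the wild type, 10 in the knockout, and 12 had RYBP. Prph, the filament of peripheral neurons, had 7482 bp in wild-type cells and 5459 bp in knockout cells, with 2061 bp of RYBP. Des, of muscle, had 7480, 3533 and 1747 bp. Lmna, which encodes lamins of the nucleus, had 6016, 3265 and 2538 bp. Nefl was marked in the knockout alone (1301 bp), and Lmnb2 (2894 bp) and Bfsp2 (808 bp) in the wild type alone. Vim, the filament of mesenchyme, had RYBP (2247 bp) and no H2AK119ub, a gene chosen after its values were seen.

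Epidermal regulators were marked at 11 of 21 in each genotype (52.4%), and 14 had RYBP (66.7%). Gata3 had 17311 bp in the wild type, 13721 bp in the knockout and 7179 bp of RYBP. Ovol1, a repressor in differentiating epidermis, had 11561 and 11784 bp of H2AK119ub, and Tfap2a, an early regulator of surface ectoderm, 11729 and 11526 bp. Ovol2 was marked in the knockout alone (1876 bp) and Tfap2b in the wild type alone (7333 bp). Desmosome and keratin linker genes were marked at 6 and 7 of 19 (31.6% and 36.8%), with RYBP at 9 (47.4%). In the wild type that is close to the 27.9% of all protein-coding genes. Plec, which encodes the linker plectin and lies on chromosome 15, had 40545 and 29746 bp. Evpl and Pkp1 were also marked in both, and Dst in the knockout alone (1083 bp). Cornified envelope genes were the least marked of these lists, at 3 and 2 of 16 (18.8% and 12.5%), with RYBP at 2 (12.5%). Cnfn had 2872 and 1812 bp and Tchh 1223 and 1241 bp. Tgm1, the transglutaminase of the envelope, had 3916 bp in wild-type cells and 0 bp in knockout cells.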

How the data were processed

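Per the submitters' processing notes, Bowtie2 2.2.5 and MACS 1.4 were used with the build mm10. The sources used here do not give their roles, the peak threshold, the handling of reads with several matches or the use of the input libraries. The authors deposited 1 peak list per library, so peaks were called per sample. Each deposited list gives positions, and its score column is 0 for every peak, so no height or p-value was used. A shallower or less enriched library gives fewer and narrower peaks. This cannot be told apart from a difference between genotypes. The 2 input samples were not analysed here.

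Gene positions were those of RefSeq on GRCm38.p6 (mm10), protein-coding genes on chromosomes 1 to 19 and X. Coordinates are counted from 1. Covered length was measured in windows of the gene with 2 kb flanks. Over several genes windows were merged first. Scripts (Python 3.11.15, pandas 2.3.3, scipy 1.17.1) were tested on simulated intervals. A CpG was counted as the letters CG.

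The members and the gene lists were chosen with earlier results of these data known. Every keratin gene with a peak is named. Of other lists up to 3 genes were named per class by covered length, except Vim. One listed hair keratin is not analysed here. Alternatives were other windows, an overlap of 50% of the peak, leaving out peaks under 1 kb, the widest H2AK119ub peaks in equal numbers, and merging of peaks within 2 kb.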

Additional observations from a re-analysis of the deposited data

How the results depend on the processing

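Under the 7 alternatives the count of keratin genes marked ran from 23 to 29 in the wild type, from 23 to 33 in the knockout and from 4 to 5 for RYBP. The number marked in both genotypes ran from 17 to 25 and in the knockout alone from 6 to 8. The number marked in the wild type alone ran from 2 to 6, and it was 2 with equal numbers of the widest peaks, which left out the narrow peaks at Krt16 and Krt76. The ratio of covered length, knockout to wild type, ran from 0.709 to 0.852 for all keratin genes, from 0.919 to 1.04 for the type I cluster and from 0.648 to 0.81 for the type II cluster. It ran from 1.24 to 1.42 for Krt80 to Krt75 and from 0.264 to 0.459 for Krt6b to Krt18. Krt76 had a difference of 0 bp under 3 of them, Krt16 and Krt28 under 2, and Krt26, Krt6a and Krt84 under 1. Depth is unknown, and with 1 library per group no replicate could be left out.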

Other observations

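The 468 kb space of the type I cluster holds genes of keratin-associated proteins, the matrix proteins of hair. Of 23 such genes in the cluster, 1 carried H2AK119ub in each genotype, Krtap16-1, with 802 bp in wild-type cells and 887 bp in knockout cells, and none had RYBP. The 15 other protein-coding genes of the cluster had no peak in any list. Krt74, annotated as a transcribed pseudogene between Krt71 and Krt72 and therefore not a member, had 761 bp of H2AK119ub in wild-type cells and 0 bp in knockout cells.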
